A study of Homo sapiens with 4 samples.

Results

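The replication-dependent histone genes encode the bulk of the linker and core histones that package newly made DNA. They were taken as the genes whose own probesets, those carrying exactly 1 gene symbol, have a symbol of an H1, H2A, H2B, H3 or H4 cluster gene. By this rule 32 genes were found among the 22465 named genes of the array: 6 of class H1, 9 of H2A, 15 of H2B, 0 of H3 and 2 of H4. Every probeset with an H3 symbol that fits the rule, and nearly every one with such an H4 symbol, carries several symbols. Those classes are therefore described further on through shared probesets and without naming a gene. H3-4 has a probeset of its own, but its symbol is outside the rule, and it is counted with the variant histones further on. RefSeq places 26 of the 32 genes on chromosome 6 and 6 on chromosome 1, and marks all 32 as protein coding. The measurements come from 4 Affymetrix arrays of 2 human triple-negative breast cancer lines, SUM159 and MDA-MB-231. Each line carried the lentiviral plasmid Ptripz-mir100 and was selected with puromycin, and the design compares cells given a tetracycline-type drug for 1 week with cells left without it, to ask what changes when miR-100 is overexpressed.

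The groups were SUM159 with miR-100 induced, SUM159 control, MDA-MB-231 with miR-100 induced and MDA-MB-231 control, with 1 array each. All 4 populations carry the construct, and the labels do not say whether a line is a clone. No drug-treated cells without the construct are analysed here, so the drug and the microRNA cannot be told apart. The lines also grew in different media, Ham's F12 with serum, hydrocortisone and insulin for SUM159 and DMEM with serum for MDA-MB-231, so line and medium cannot be told apart either. One line appears as SUM149 in the series text and as SUM159 in the sample labels, which are followed. MIR100 had a log2 signal of 18.18 in induced and 6.56 in control SUM159 cells, and of 17.29 in induced and 8.11 in control MDA-MB-231 cells, so induced cells had the higher signal in both lines. The mesenchymal genes VIM, ZEB1, SNAI2 and AXL and the surface marker gene CD44 lay above the signal cutoff of 4.035 on all 4 arrays, while the receptor genes ESR1 and PGR and the epithelial gene CDH1 lay below it on all 4. The luminal or epithelial genes KRT8, KRT18, GATA3 and EPCAM lay above it on all 4. Of the genes of other cell types checked, CD3E (4.16 to 4.56), CD79A (4.17 to 4.40) and COL1A1 also lay above it on all 4. PTPRC and ALB lay below it on all 4, and HBB, PECAM1, CDH5 and DCN were above it on some arrays only. Passing the cutoff therefore does not by itself show that a gene is expressed.

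Replication-dependent histone genes lie in clusters, have no introns, and are transcribed mainly in S phase, when DNA is copied. Their mRNAs end in a conserved stem-loop in place of a poly(A) tail. The coactivator NPAT switches the clusters on, and the stem-loop binding protein SLBP guides processing, export and translation of the mRNAs. H2A, H2B, H3 and H4 form the octamer around which DNA winds, and H1 binds the linker DNA between nucleosomes. The genes of a core histone class encode nearly the same protein, and those of H1 related proteins. Probesets of a class can therefore share probes, and no value can be assigned to its gene with certainty. The H1 symbols occur on no shared probeset.

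Promoters are shown first because members of the same class, whose promoters share a class motif, stood at opposite ends of the comparison between lines. RefSeq sequences (GRCh38.p14) matched 30 of the 32 members, with H4C3 and HIST1H2AH unmatched. The 250 bases before the start site are printed for the H1 and H2B members with the highest and lowest difference between the lines. Capitals mark 3 motifs on either strand: the octamer ATTTGCAT, the H1 box AAACACA and the TATA box TATAAA.
H1-3, chr6:26234988-26235237, minus strand: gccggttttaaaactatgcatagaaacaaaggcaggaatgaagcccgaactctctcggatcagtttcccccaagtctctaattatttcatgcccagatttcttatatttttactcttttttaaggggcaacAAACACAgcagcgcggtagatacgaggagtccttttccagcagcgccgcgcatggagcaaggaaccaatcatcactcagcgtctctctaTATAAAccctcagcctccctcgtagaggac
H1-4, chr6:26156079-26156328, plus strand: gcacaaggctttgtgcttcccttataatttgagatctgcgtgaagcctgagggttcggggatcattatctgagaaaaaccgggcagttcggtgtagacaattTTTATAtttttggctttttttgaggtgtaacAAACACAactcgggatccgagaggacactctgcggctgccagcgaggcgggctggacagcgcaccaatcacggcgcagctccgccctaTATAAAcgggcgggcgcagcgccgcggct
H2BC10, chr6:26272681-26272930, plus strand: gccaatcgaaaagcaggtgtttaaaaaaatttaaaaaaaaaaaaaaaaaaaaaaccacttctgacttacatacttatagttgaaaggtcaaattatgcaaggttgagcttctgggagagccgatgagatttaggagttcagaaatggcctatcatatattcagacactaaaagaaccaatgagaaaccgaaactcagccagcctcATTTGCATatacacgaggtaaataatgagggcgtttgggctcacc
H2BC17, chr6:27893175-27893424, plus strand: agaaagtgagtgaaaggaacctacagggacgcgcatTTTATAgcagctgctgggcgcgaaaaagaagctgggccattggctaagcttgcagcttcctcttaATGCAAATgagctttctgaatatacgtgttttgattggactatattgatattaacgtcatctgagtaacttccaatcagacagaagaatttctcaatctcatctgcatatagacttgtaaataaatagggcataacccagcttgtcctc

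The octamer, bound by POU2F1 (Oct-1) in H2B promoters, was found in 11 of 15 H2B, 6 of 8 H2A, 0 of 6 H1 and 0 of 1 H4 promoters, against 1.66% of the 27305 gene promoters searched. In 7 of the 11 H2B promoters it read along the gene and began 45 to 49 bases before the start, as in H2BC10. In H2BC17 it read on the other strand and began 149 bases before the start. The windows of H2BC21 and H2AC20, of H2BC1 and H2AC1, and of H2BC14 and H2AC14 overlap. In each of these pairs the same octamer is counted for both classes. The H1 box was in all 6 H1 promoters and in 0 of the H2A, H2B and H4 promoters, against 4.95% of all promoters. TATAAA was in 20 of the 30 member promoters against 11.1% of all, and the shorter CCAAT, which is not capitalised above, was in 29 of 30 against 33.0%. Both strands were searched, and 0 hits of these 4 motifs overlapped a hit of another. H1-3 and H1-4 both hold the H1 box and TATAAA, with a second TATAAA on the other strand in H1-4. H2BC10 and H2BC17 both hold the octamer, and H2BC17 also holds a TATAAA on the other strand. These matches describe letters only.

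Of the 32 members, 26 had a mean log2 signal over the 4 arrays at or above the median of all probesets, 4.035, and are called kept. The 6 others were the linker genes H1-1, H1-5 and the testis-specific H1-6, together with H2BC1, H2BC6 and H4C7. On all 4 arrays H1-1, H1-5, H1-6 and H4C7 lay below the cutoff, between 2.40 and 3.90. By contrast H4C3, H1-4, H2AC20 and H2BC12 lay between 12.44 and 16.16 throughout. Signals of different probesets are not on a common scale, so these ranges rank no gene against another. The labels' kit, a whole-transcript one, is generally used with random primers, which do not need a poly(A) tail.

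**Figure D1:**
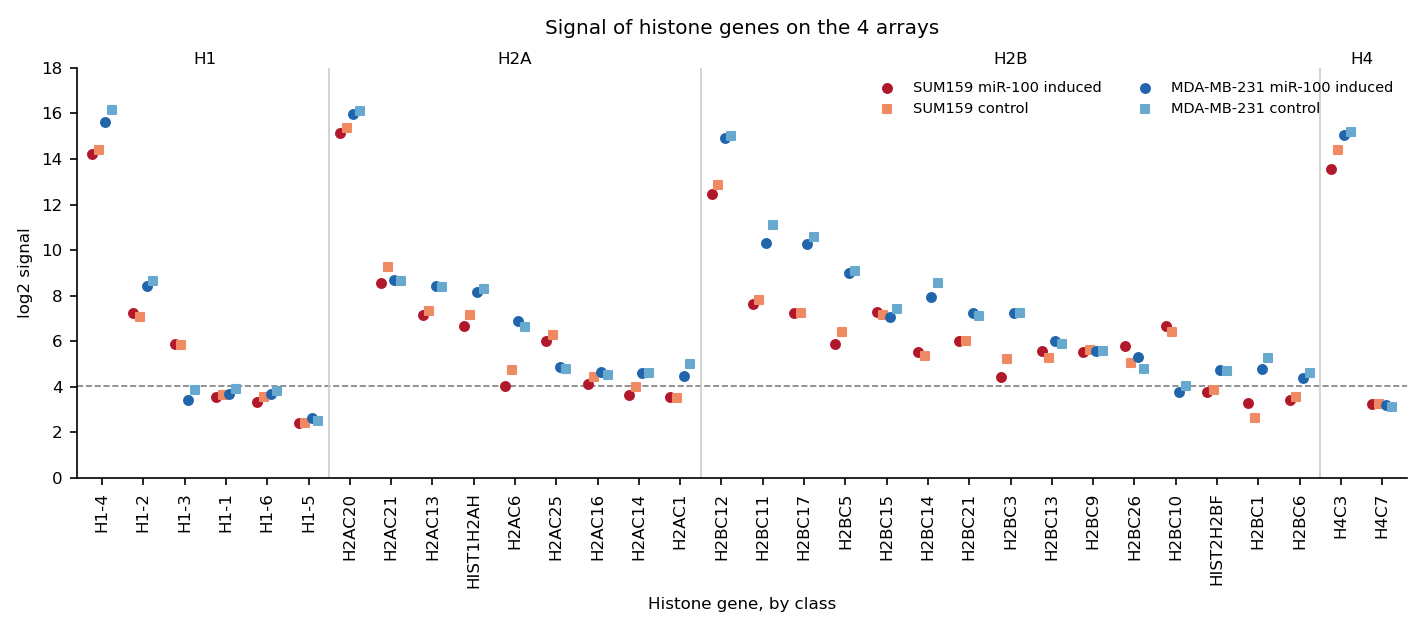
Log2 signal (y axis) of the 32 histone genes (x axis, grouped by class), with 1 point for each of the 4 arrays and a dashed line at the signal cutoff of 4.035. For most genes of classes H2A and H2B the MDA-MB-231 points lie above the SUM159 points, while H1-3 and H2BC10 are the other way round.

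With miR-100 induced, most histone genes shifted little, and more of them lay below their control than above it. In SUM159, 17 of 26 kept members were lower in induced cells, 8 were higher and the median difference was -0.15 log2 units. Over all 14418 kept genes 7116 were lower and 7041 higher, with a median of 0.00. In MDA-MB-231, 15 were lower and 10 higher, with a median of -0.07. Over all kept genes 6818 were lower and 7301 higher, with a median of 0.01. Each within-line difference rests on 1 array per state, so it has no replicate check and no test. For the 19 kept members whose symbol is on no shared probeset, the SUM159 median was -0.06. With the cutoff at the 75th percentile of all probesets, the MDA-MB-231 median was -0.12. Probesets below the cutoff scattered by 0.19 in SUM159 cells and 0.18 in MDA-MB-231 cells (an SD estimated from the median absolute deviation). That spread covers dim probesets only and does not measure how kept genes would vary between replicates.

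Taken at 1.5-fold (0.585 on the log2 scale), 4 of 26 kept members were lower and 1 was higher in induced SUM159 cells. Over all kept genes 3% were that much lower and 3.95% that much higher. In MDA-MB-231, 2 of 26 were lower and 0 higher, against 0.784% and 1.69% of all kept genes. At 2-fold, 0 members were past the threshold in either line. The lower members were H4C3, H2BC3, H2AC6 and H2AC21 in SUM159, and H2BC11 and H2BC14 in MDA-MB-231.

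H4C3, a core histone H4 gene, had the lowest difference in SUM159, with log2 signals of 13.54 in induced and 14.41 in control cells (-0.87, 1.83-fold lower). In MDA-MB-231 it stood at 15.05 in induced and 15.17 in control cells. Its symbol also occurs on shared H4 probesets. H2BC3, an H2B gene, had 4.43 in induced and 5.20 in control SUM159 cells, a difference of -0.77, and 7.26 in induced and 7.22 in control MDA-MB-231 cells. H2AC6, an H2A gene, had 4.02 in induced and 4.75 in control SUM159 cells, and 6.88 in induced and 6.62 in control MDA-MB-231 cells. Its induced SUM159 signal lay just under the cutoff. H2AC21, an H2A gene of the chromosome 1 cluster, had 8.56 in induced and 9.26 in control SUM159 cells, against 8.70 in induced and 8.63 in control MDA-MB-231 cells. For these genes other than H4C3, the MDA-MB-231 difference was above 0, between 0.04 and 0.26.

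In MDA-MB-231 the lowest difference was that of H2BC11, with 10.31 in induced and 11.10 in control cells (-0.79). SUM159 cells had 7.63 induced and 7.79 control on the same probeset. A second, dimmer H2BC11 probeset stood at 7.39 in induced and 7.24 in control MDA-MB-231 cells, a difference of 0.15, so the probesets of this gene disagree in direction. H2BC14, another H2B gene, had 7.92 in induced and 8.54 in control MDA-MB-231 cells, a difference of -0.62. In SUM159 it had 5.52 in induced and 5.34 in control cells. The linker gene H1-4 came close to the threshold in MDA-MB-231, with 15.63 in induced and 16.16 in control cells (-0.53), and stood at 14.22 in induced and 14.38 in control SUM159 cells.

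H2BC26, an H2B gene of the small second cluster on chromosome 1, was the member with the clearest upward difference in both lines. It had 5.81 in induced and 5.03 in control SUM159 cells, higher by 0.78, and 5.30 in induced and 4.76 in control MDA-MB-231 cells, higher by 0.54. H2BC13 was also higher in both, by 0.34 and 0.12, and these were the 2 kept members higher in both lines (7.69%, against 25.2% of all kept genes). Lower in both were 8 kept members (30.8%, against 23.7% of all kept genes): H4C3, H1-4, H2AC20, H2BC5, H2BC9, H2BC11, H2BC12 and HIST1H2AH. HIST1H2AH, an older symbol that RefSeq pairs with H2AC12, had 6.67 in induced and 7.14 in control SUM159 cells, and 8.15 in induced and 8.27 in control MDA-MB-231 cells. H2BC5 had 5.89 in induced and 6.40 in control SUM159 cells, and 9.01 in induced and 9.07 in control MDA-MB-231 cells. In H2AC20 the differences were -0.20 and -0.15, in H2BC12 -0.42 and -0.08, and in H2BC9 -0.06 and -0.01, in SUM159 and MDA-MB-231.

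**Figure D2:**
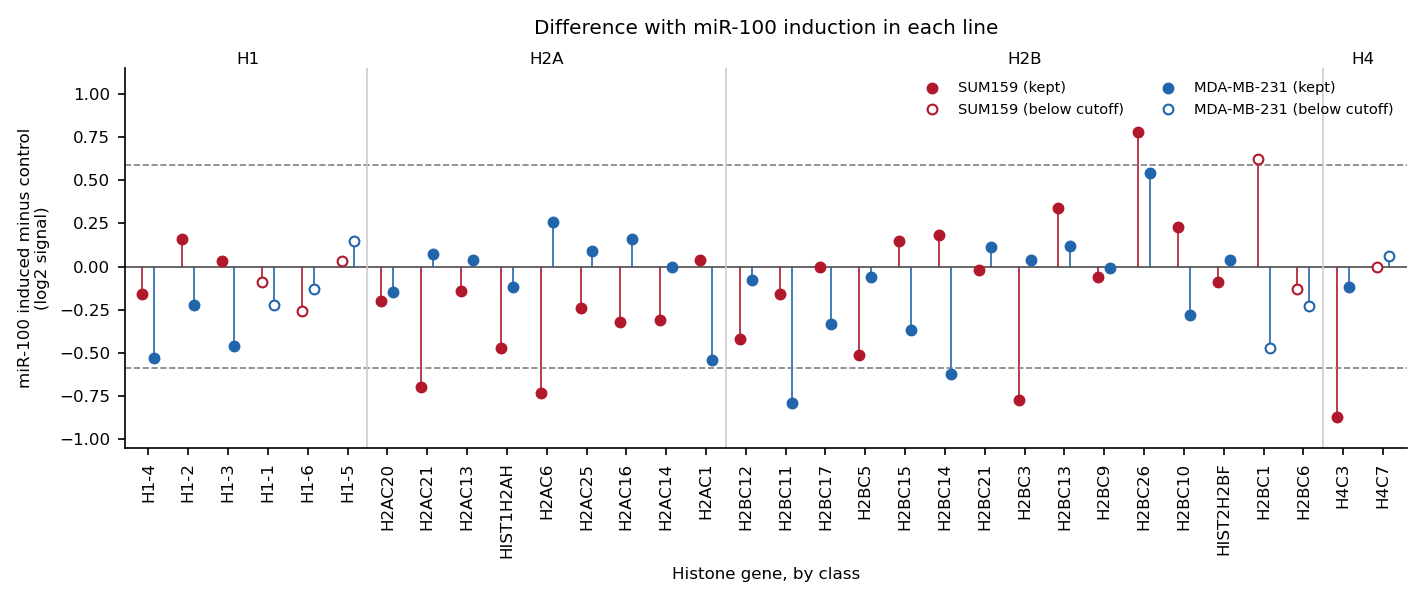
Induced minus control log2 signal (y axis) for each histone gene (x axis, grouped by class) in SUM159 and MDA-MB-231, with 1 difference per line and no replicates; dashed lines mark 1.5-fold and hollow points are genes below the signal cutoff. H4C3 reaches -0.87 and H2BC26 0.78 in SUM159, and H2BC11 reaches -0.79 in MDA-MB-231.

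By class, the H2A genes had medians of -0.31 in SUM159 cells and 0.04 in MDA-MB-231 cells over 9 kept members, with 8 of 9 lower in SUM159 and 3 of 9 lower in MDA-MB-231. H2B genes had medians of -0.02 and -0.06 over 13 kept members. The 3 kept H1 genes had medians of 0.03 and -0.46, and all 3 were lower in induced MDA-MB-231 cells. Of all 14418 kept genes, 7116 were lower in induced SUM159 cells and 6818 in induced MDA-MB-231 cells. H1-2 stood at 7.23 in induced and 7.07 in control SUM159 cells and at 8.43 in induced and 8.65 in control MDA-MB-231 cells. H1-3 stood at 5.87 in induced and 5.84 in control SUM159 cells, and at 3.42 in induced and 3.88 in control MDA-MB-231 cells, where both signals lay below the cutoff. The H1 median of -0.46 in MDA-MB-231 is the value of H1-3, so it carries little. Whether a class differed between the lines in its response was not tested, since 1 array per group leaves no residual for it.

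Over both lines, limma with cell line as a block called 0 of 14418 genes at an adjusted p of 0.05 (0%), histone genes included. Its residual, with 1 degree of freedom, reflects how unequal the responses of the lines were, so its p-values measure that and not a spread of replicate cultures. MIR100 itself, with a mean difference of 10.4, had a limma adjusted p of 0.918, so the absence of calls says nothing of how stable a gene was. At an unadjusted p under 0.05 there were 556 genes (3.86%) and 1 kept histone gene, H2BC26. Its mean difference was 0.66 ± 0.13 (SE, 2 lines), with a limma adjusted p of 0.918. For H4C3 the mean difference was -0.50 ± 0.23 (SE) and for H2BC11 -0.48 ± 0.20, each with the same adjusted p of 0.918.

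The comparison between the lines gave far larger values, and most histone genes were lower in SUM159. Of 26 kept members, 18 were lower and 3 higher in SUM159 than in MDA-MB-231 by limma with treatment as a block, at an adjusted p under 0.05. Of all 14418 kept genes 23.8% were called lower and 20.8% higher. At 1.5-fold, 17 members were lower and 3 higher, against 22.7% and 20% of all kept genes. The median over kept members was -1.145 log2 units, where that of all kept genes was 0.00. H2AC1, H2AC14, HIST2H2BF and H1-3 reached the cutoff only in the line where they are higher; among the 22 other kept members, 15 were called lower and 2 higher. This contrast averages 2 arrays per line, and its limma residual has the same 1 degree of freedom and the same meaning as above.

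The 5 lowest values were those of H2B genes. H2BC17 had 7.25 in induced and 7.25 in control SUM159 cells, against 10.26 in induced and 10.59 in control MDA-MB-231 cells, a difference of means of -3.17 ± 0.14 (SE, limma adjusted p = 0.0024). That is 9.03-fold lower in SUM159. H2BC11, whose 4 signals are given above, differed by -2.99 (7.97-fold, adjusted p = 0.0037), and its dimmer probeset by -1.69. H2BC5 differed by -2.89 (7.44-fold, adjusted p = 0.0031) and H2BC14 by -2.80 (6.96-fold, adjusted p = 0.0053). H2BC3 differed by -2.42 (adjusted p = 0.0067). H2BC12 had 12.44 in induced and 12.86 in control SUM159 cells, against 14.93 in induced and 15.01 in control MDA-MB-231 cells (-2.32 ± 0.15, adjusted p = 0.0035). In each of these genes both SUM159 arrays lay below both MDA-MB-231 arrays.

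Outside H2B the same direction was common. H2AC6 differed by -2.37 (adjusted p = 0.0094), H1-4 by -1.59 (0.0062), H1-2 by -1.39 (0.0079), HIST1H2AH by -1.30 (0.0083), H2AC13 by -1.18 (0.0073) and H4C3 by -1.14 (0.0285), all as limma adjusted p. H2AC13, an H2A gene, had 7.17 in induced and 7.31 in control SUM159 cells, against 8.44 in induced and 8.40 in control MDA-MB-231 cells. H2AC20 had 15.14 in induced and 15.34 in control SUM159 cells, against 15.97 in induced and 16.12 in control MDA-MB-231 cells (-0.81 ± 0.12, adjusted p = 0.0134). The 5 remaining lower calls, H2AC1, H2AC14, H2BC13, H2BC21 and HIST2H2BF, had differences between -1.22 and -0.51. H2AC1, H2AC14 and HIST2H2BF lay below the cutoff on both SUM159 arrays, and with signals under the cutoff set to it their differences were -0.69, -0.58 and -0.67.

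Higher in SUM159 were H2BC10, H1-3 and H2AC25. H2BC10 had 6.65 in induced and 6.42 in control SUM159 cells, against 3.76 in induced and 4.04 in control MDA-MB-231 cells (2.63 ± 0.18, adjusted p = 0.0037). H1-3, with the signals given above, was higher by 2.20 ± 0.17 (adjusted p = 0.0046). H2AC25, an H2A gene next to H2BC26, had 6.02 in induced and 6.26 in control SUM159 cells, against 4.86 in induced and 4.77 in control MDA-MB-231 cells (1.32 ± 0.14, adjusted p = 0.0077). In MDA-MB-231, H1-3 lay below the cutoff in both states and H2BC10 in induced cells. With signals under the cutoff set to it, H1-3 was at least 3.53-fold and H2BC10 at least 5.65-fold higher in SUM159. The symbol of H2BC10 also occurs on shared H2B probesets.

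The difference was not called for 5 kept members. H2BC9 stood at 5.54 in induced and 5.60 in control SUM159 cells, against 5.55 in induced and 5.56 in control MDA-MB-231 cells, a difference of 0.01 ± 0.12 (adjusted p = 0.930). H2BC15 had 7.29 in induced and 7.14 in control SUM159 cells, against 7.05 in induced and 7.42 in control MDA-MB-231 cells (-0.02 ± 0.18, adjusted p = 0.939). The other 3 were H2AC16 at -0.32, H2AC21 at 0.24 and H2BC26 at 0.39, with adjusted p-values between 0.0891 and 0.458. Not passing the threshold does not show that the levels are alike.

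Along chromosome 6, in RefSeq order, the called higher members H1-3 and H2BC10 had only H4C7 and H2BC9 between them. The first 11 of the 26 members, H2AC1 to H2BC6, all had differences below 0, between -2.89 and -0.21. The next 4 in order, H1-3, H4C7, H2BC9 and H2BC10, had differences of 2.20, 0.10, 0.01 and 2.63. All 11 that follow, H2BC11 to H2BC17, were below 0 again, between -3.17 and -0.02, except that H2BC15 at -0.02 stood at 0.04 under quantile normalization or array centring. On chromosome 1 the first 3 of 6 members, HIST2H2BF, H2BC21 and H2AC20, were below 0 and the last 3, H2AC21, H2AC25 and H2BC26, above it. The order was noticed in the values and is given as a description with no test. H4C7, H1-1, H1-5 and H1-6 are below the cutoff on all arrays, so their values carry little, and H2BC9 did not pass the test.

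**Figure D3:**
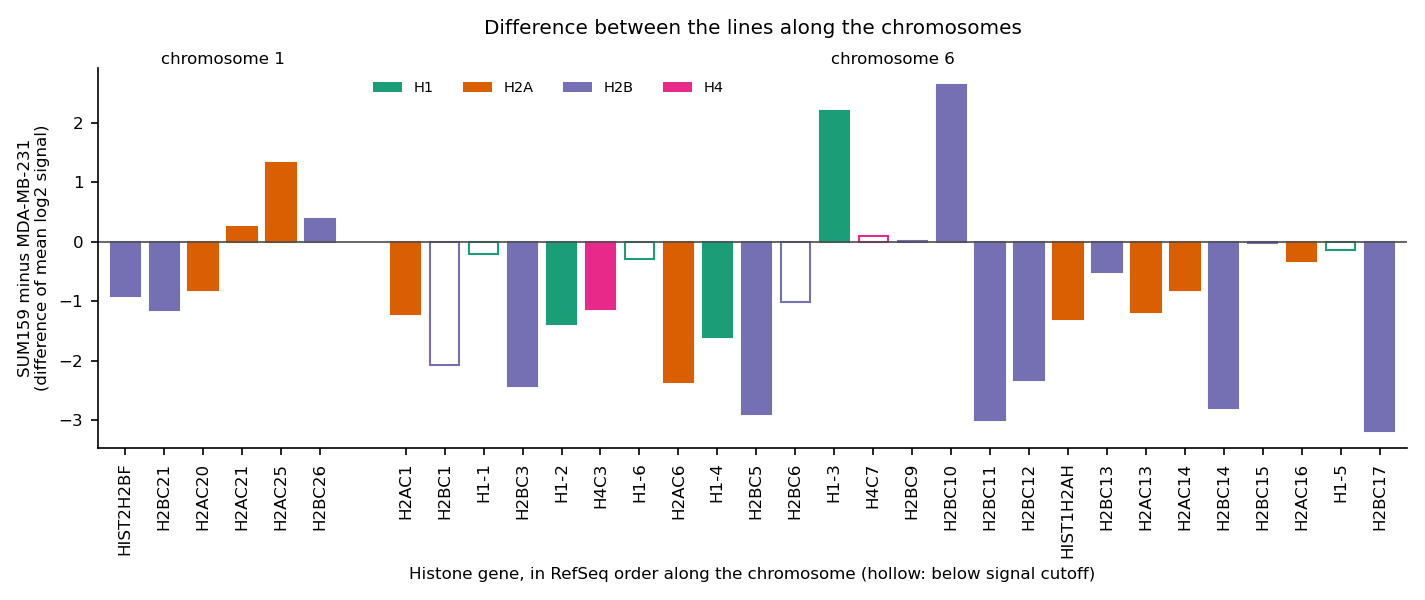
SUM159 minus MDA-MB-231 difference of mean log2 signal (y axis) for the 32 histone genes in RefSeq order along chromosomes 1 and 6 (x axis), coloured by class, with hollow bars for genes below the signal cutoff. On chromosome 6 the bars are below 0 except from H1-3 to H2BC10, where H1-3 reaches 2.20 and H2BC10 2.63.

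Many H2A and H2B genes lie back to back and share the stretch between their start sites. The 250-base promoter windows of 5 H2A and H2B pairs among the members overlapped on opposite strands, by 214 to 244 bases. Between the lines, H2AC13 was at -1.18 and H2BC13 at -0.51, and H2BC21 at -1.16 and H2AC20 at -0.81. H2BC14 was at -2.80, while its partner H2AC14 lay below the cutoff on both SUM159 arrays, which limits how low its difference of -0.81 can be. Whether partners differed was not tested. With induction, H2BC26 was higher by 0.78 in SUM159 cells and 0.54 in MDA-MB-231 cells, while its partner H2AC25 stood at -0.24 and 0.09.

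The shared probesets carry the classes that the members lack. In all, 38 probesets list several symbols with at least 1 histone cluster gene among them, of which 34 were kept by the same cutoff. All symbols were of class H3 for 12, of H4 for 13 (9 kept), of H2A for 7 and of H2B for 3. The 12 H3 probesets had a median of -1.965 between SUM159 and MDA-MB-231, from -4.57 to 3.01. At 1.5-fold, 9 were lower and 3 higher, against 22.7% and 20% of all kept genes. Among the 3 higher, the probeset at 0.81 lay below the cutoff on both MDA-MB-231 arrays (3.89 induced, 3.87 control). Another, at 0.585, only just reached the threshold. The lowest of the 12 stood at 4.15 in induced and 3.96 in control SUM159 cells, against 8.43 in induced and 8.81 in control MDA-MB-231 cells. The highest had 7.10 in induced and 8.13 in control SUM159 cells, against 4.85 in induced and 4.37 in control MDA-MB-231 cells. Both belong to 9 H3 probesets that list the identical 10 symbols, so probesets with the same symbols differed in value.

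H4 probesets, each with 14 symbols, had a median of -0.89 between the lines over 9 kept. Past 1.5-fold, 5 were lower and 2 higher, against 22.7% and 20% of all kept genes. The 2 higher ones were far above the rest. Of these, the first had 9.84 in induced and 10.42 in control SUM159 cells, against 5.56 in induced and 5.74 in control MDA-MB-231 cells. The second had 8.89 in induced and 9.17 in control SUM159 cells, against 4.51 in induced and 5.27 in control MDA-MB-231 cells. The widest gap of any histone probeset between the lines was that of an H2A probeset with 2 symbols, TC06000173.hg.1. It had 11.03 in induced and 12.11 in control SUM159 cells, against 4.53 in induced and 4.40 in control MDA-MB-231 cells, a difference of 7.11. The other 6 H2A probesets lay between -3.06 and -1.0. The lowest of them, at -3.06, lists the same 2 symbols, so probesets with the same symbols differed in direction.

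With induction, 5 of the 34 kept shared probesets were past 1.5-fold lower in SUM159 and 0 higher, against 3% and 3.95% of all kept genes. In MDA-MB-231 2 were lower and 0 higher, against 0.784% and 1.69%. All 9 kept H4 probesets were lower in induced SUM159 cells, between -0.81 and -0.06, where 7116 of all 14418 kept genes were lower. These H4 probesets list the same 14 symbols and can share probes, so they are not separate observations. The H2A probeset with the widest gap between lines was among the lower ones in SUM159, at -1.08. The other H2A probeset with the same 2 symbols was past 1.5-fold lower in both lines. It had 6.80 in induced and 7.82 in control SUM159 cells, and 10.00 in induced and 10.73 in control MDA-MB-231 cells. H3 probesets had medians of 0.12 in SUM159 cells and -0.01 in MDA-MB-231 cells, with 1 of 12 past 1.5-fold in SUM159 (-1.03) and 0 in MDA-MB-231. No limma test was made on the shared probesets.

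**Figure D4:**
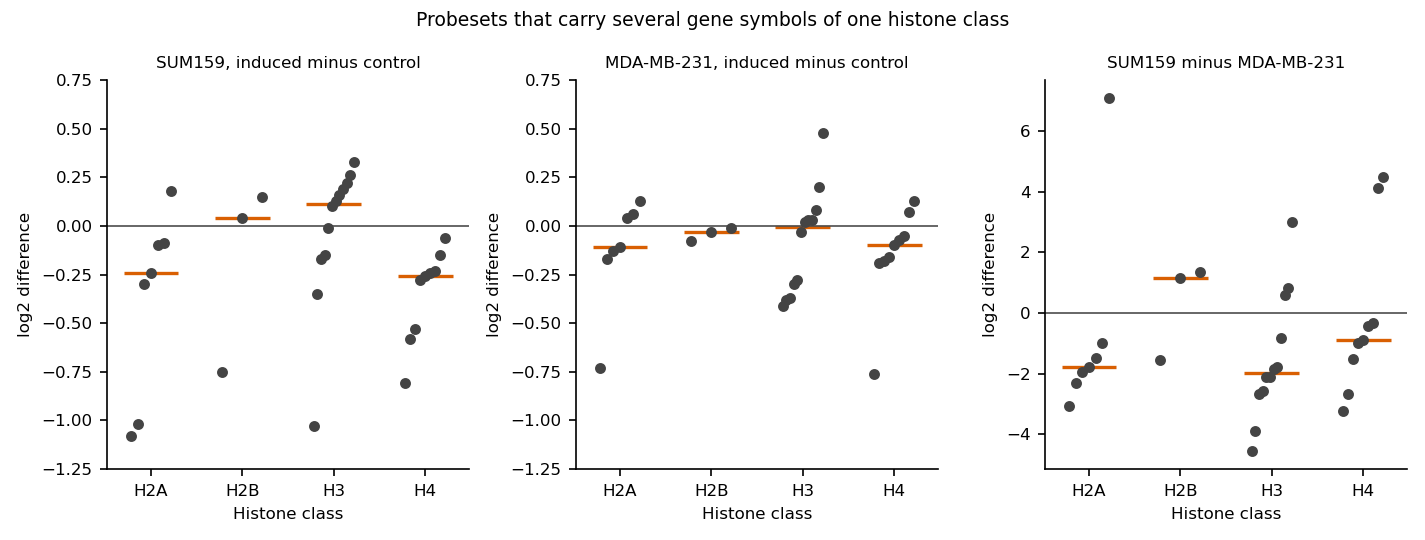
Log2 differences (y axes) of the kept probesets that list several symbols of a single histone class (x axes), 1 point per probeset with the class median as a line; the panels give SUM159 induced minus control, MDA-MB-231 induced minus control, and SUM159 minus MDA-MB-231. Induction differences stay within -1.08 and 0.48, while differences between lines run from -4.57 to 7.11.

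Of the kept genes for histone transcription, mRNA processing and decay, 19 of 26 were above 0 with induction in SUM159 cells. Over all kept genes that count was 7041 of 14418. For MDA-MB-231 cells it was 14 of 26, near the 7301 of 14418 over all kept genes. Of 28 listed genes for histone transcription, mRNA processing and decay, 26 were kept. Their median difference was 0.12 in SUM159 cells and 0.03 in MDA-MB-231 cells. Only LSM11 was past 1.5-fold higher in SUM159 cells (3.85% of the list, near the 3.95% of all kept genes). LSM11 belongs to the U7 particle that cuts histone pre-mRNAs, and had 7.26 in induced and 6.66 in control SUM159 cells. In MDA-MB-231 cells 0 were past 1.5-fold higher, and 0 were that much lower in either line. SLBP had 10.43 in induced and 10.42 in control SUM159 cells, and 9.82 in induced and 9.82 in control MDA-MB-231 cells. NPAT had 8.63 in induced and 8.53 in control SUM159 cells, and 11.13 in induced and 10.93 in control MDA-MB-231 cells. TUT7, a uridylyl transferase of RNA decay, was higher by 0.58 and 0.37, CSTF2T, a relative of the cleavage factor gene CSTF2, by 0.54 and 0.27, and the phosphatase gene CDC25A stood at -0.20 and -0.41, in SUM159 and MDA-MB-231.

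Between the lines, 7 of the 26 were higher and 8 lower in SUM159 by limma (26.9% and 30.8%, near the 20.8% and 23.8% of all kept genes), with a median of 0.18. NPAT was lower in SUM159 by limma, at -2.45 (adjusted p = 0.00254), and SLBP was higher, at 0.60 (adjusted p = 0.0248). Of 21 kept chaperone and assembly genes, 6 were lower and 3 higher by limma (28.6% and 14.3%, near the 23.8% and 20.8% of all kept genes). HJURP, the chaperone of CENPA, stood at -1.81 (adjusted p = 0.00358), ASF1B, an H3-H4 chaperone, at -1.94 (0.00849), and the acetyltransferase gene HAT1 at -0.67 (0.0862). With induction 0 of the 21 were past 1.5-fold in either line. The variant list, of histone genes outside the rule, had 10 kept genes with a median of -0.47 between the lines. By limma 4 were lower and 0 higher (40% and 0%, against 23.8% and 20.8% of all kept genes). Among them H2AZ2 stood at -1.92 (adjusted p = 0.00358) and H2AX at -0.53 (0.0818).

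S-phase and mitotic genes moved with the histone genes in the comparison between lines. Of 40 kept S-phase genes, 29 were lower and 1 higher in SUM159 by limma, with a median of -1.07. Of 24 kept mitotic genes, 21 were lower and 0 higher, with a median of -1.35. Those shares are 72.5% and 2.5% for S-phase and 87.5% and 0% for mitotic genes, against 23.8% and 20.8% of all kept genes. The replication licensing gene CDC6 had 8.22 in induced and 9.30 in control SUM159 cells, against 12.03 in induced and 12.26 in control MDA-MB-231 cells (-3.38, adjusted p = 0.00433). The part of these lists in the histone result was not tested, and in bulk arrays fewer cells in S phase and less histone RNA per cell cannot be told apart. With induction, S-phase genes had medians of 0.03 in SUM159 cells and -0.03 in MDA-MB-231 cells, and mitotic genes of 0.21 and 0.13, where the kept histone genes had -0.15 and -0.07. SLBP, CCNE1 and CCNE2 stand in both the processing and S-phase lists, and MCM2 in both the chaperone and S-phase lists.

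**Figure D5:**
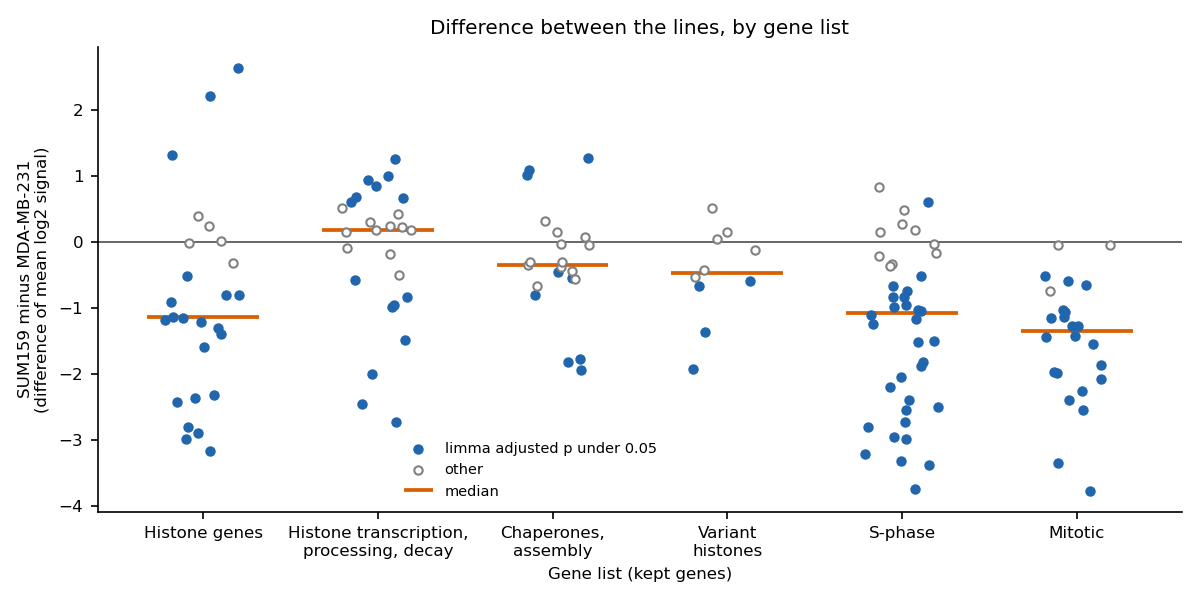
SUM159 minus MDA-MB-231 difference of mean log2 signal (y axis) for each kept gene of 6 lists (x axis); filled points passed a limma adjusted p of 0.05 and lines are list medians. Medians of the histone, S-phase and mitotic lists lie at -1.145, -1.07 and -1.35, and that of the histone processing list at 0.18.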

How the data were processed

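The submitters' processing notes name Affymetrix Expression Console and the Transcriptome Analysis Console. The authors deposited log2 signals of 70523 probesets on each array, spanning 1.54 to 19.86. How these were summarised and normalized, and with which software versions, is not stated. Array medians lay between 4.00 and 4.07, so no further scaling was applied. Control and induced arrays correlated across probesets at 0.993 in SUM159 cells and 0.996 in MDA-MB-231 cells. The number of arrays limits the precision.

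The platform annotation gives 1 gene symbol to 23781 probesets and several to 1543. Only the first were used for genes, taking the brightest probeset per gene by the mean of the 4 arrays. Of 33 histone probesets, 32 remained, 1 per gene. Of the 32 genes, 30 have a gene ID, all found in RefSeq (GRCh38.p14). HIST1H2AH and HIST2H2BF were paired with H2AC12 and H2BC18 through RefSeq synonyms. Genome coordinates of the probesets are not used here, since their build is not stated. Genes entered the fits if their mean reached 4.035, the median signal of all probesets.

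Limma 3.58.1 in R 4.3.3 (lmFit, eBayes, two-sided, Benjamini-Hochberg over 14418 kept genes) was fitted with line or treatment as a block. A run on simulated data gave all genes the same noise and both lines equal changes. It leaves out the unequal responses that form the residual here, so it does not vouch for these calls. The labels do not say that arrays came from separate cultures. The members, lists, tests and named genes were chosen with earlier results of these data known. Named members are the 4 brightest per class, those at or past 1.5-fold in a line, the 8 highest and 8 lowest between lines and all H1 genes. Others are named only to account for every member or to give a pair. Of each other list, up to 4 genes were taken by their absolute mean difference with induction, with NPAT and SLBP. CDC6 comes first in the S-phase list by this rule. H2AZ2 and H2AX are among the first 4 variant histones. CCNE1, CCNE2 and MCM2 are named for the overlap of lists. Alternatives changed the signal cutoff, the scaling, the probeset rule, the fold threshold, the block and the variance trend.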

Additional observations from a re-analysis of the deposited data

Results flagged for a closer look

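H2BC1, a testis-type H2B gene that was not kept, stood out because it went opposite ways in the lines, each time past 2 times the spread of probesets below the cutoff. It was at 3.27 in induced and 2.65 in control SUM159 cells, a difference of 0.62, and at 4.79 in induced and 5.26 in control MDA-MB-231 cells, a difference of -0.47. Both SUM159 signals lay below the cutoff. The difference between the lines was not tested, since there is 1 array per group.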

How the results depend on the processing

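With a cutoff of 5.935, the 75th percentile, 15 members remained and the median between lines was -1.39. There 0 members were higher in SUM159, at 1.5-fold or by limma, and 0 were past 1.5-fold higher with induction in SUM159, since H2BC10, H1-3, H2AC25 and H2BC26 lie under that cutoff. With no cutoff, 2 members were past 1.5-fold higher in induced SUM159 cells, the second being H2BC1. With the mean over a gene's probesets, 1 member in place of 2 was past 1.5-fold lower in MDA-MB-231, because the H2BC11 probesets disagree. At 2-fold, 0 members were past the threshold with induction in SUM159, higher or lower, and 0 were lower in MDA-MB-231. Under quantile normalization, array centring, protein-coding members, no block and eBayes with trend, each of the counts stayed within 1.5 times, and the medians between lines lay between -1.145 and -1.085. H2BC15, at -0.02 between the lines, stood at 0.04 under quantile normalization and array centring. For the 19 kept members on no shared probeset, an alternative chosen after seeing the data, the median between lines was -1.22, that with induction in SUM159 was -0.06, and the counts were also within 1.5 times. The fits with cell line as a block already pair the induced and control array of each line, and without that block 0 members were called with induction as well. Among the 22 kept members that reach the cutoff on an array of each line, also chosen after seeing the data, the counts were within 1.5 times and the median between lines was -1.17. Signals near the cutoff limit what can be seen of a lower level, as for H1-3 and H2BC10 in MDA-MB-231.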
